A study of Mus musculus with 4 samples.

Results

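Collagens and laminins are the structural chains of the extracellular matrix, and their transcripts were measured by poly(A) RNA sequencing in the lateral habenula of mice kept alone or in groups. The chains were taken by name. Every protein-coding gene whose symbol follows the collagen chain or the laminin α, β or γ pattern was included if it had at least 10 counts summed over the libraries, and 54 of the 53465 gene identifiers met this. They comprise 11 fibrillar collagen chains, 17 basement membrane chains (6 of collagen IV and 11 laminins) and 26 other collagen chains. A further chain, Col10a1, had 7 counts in all and was left out. All 54 chains had enough counts to be tested, with totals over the 4 libraries from 34 counts for Col17a1 to 22108 for Col25a1. The exons of 15 chains overlap those of another annotated gene, and apart from the pair Col4a1 and Col4a2 and the neighbour of Col20a1, these other genes had at most 15 counts in any library.

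The study has 2 libraries from acutely isolated mice and 2 from group-housed mice, all of the C57BL/6 strain with no transgene, mutation or drug named. Total RNA came from brain tissue labelled lateral habenula, a small epithalamic nucleus that passes forebrain signals to midbrain monoamine neurons. The sources used here do not give the duration of isolation, the age and sex of the mice, or whether a library holds 1 animal or several. The spread behind each p-value is therefore that between these libraries alone and could be technical. Isolated replicates 1 and 2 held 26428152 and 25985591 counts, and group-housed replicates 1 and 2 held 20897605 and 25640860. A level of 3 counts equalled 0.113 to 0.146 CPM, depending on the library, where CPM is the count scaled to the effective library size. A list of 8 lateral habenula markers summed to 1912 and 1723 CPM in the isolated libraries and to 1864 and 1783 CPM in the group-housed libraries, and none was at 0. Of these markers 3 were higher and 5 lower in isolated libraries (median log2 fold change -0.10). The 3 higher ones had an unadjusted p below 0.05 in edgeR's quasi-likelihood test, as did 2.83% of all tested genes as higher. None of the 5 lower ones did, and no marker of this list passed after adjustment. Markers of the neighbouring medial habenula and thalamus were present in all 4 libraries as well. In bulk tissue, fewer cells of a type and less RNA per cell cannot be told apart.

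Each collagen molecule is a trimer wound into a triple helix, which requires glycine to recur along its chains in the repeat Gly-X-Y. Fibrillar collagens pack side by side into tensile fibres, in the brain mostly in the meninges and around larger vessels. Collagen IV and the laminins, which are cross-shaped trimers of 1 α, 1 β and 1 γ chain, form the sheets of basement membrane that surround brain vessels and lie under the pia. The remaining collagens decorate fibrils, form beaded filaments or short-chain networks, or span the plasma membrane, and several of them are made by neurons or glia.

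The glycine repeats of the coding sequences differ between these classes. A codon that starts with GG encodes glycine, and a run was counted where at least 5 triplets in a row began with such a codon. Stretches of 24 codons are shown in lower case from the GENCODE transcripts of GRCm38, with the glycine codons at the first position of each Gly-X-Y triplet in capitals. Glycine codons elsewhere in a triplet or in a break stay in lower case. Col1a1 and Col3a1 stand for the unbroken helix of fibrillar chains, and Col4a1, Col8a2 and Col25a1 show the first short break between runs in a vascular basement membrane collagen, in the collagen with the smallest p-value between the groups, and in the most abundant chain.
Col1a1: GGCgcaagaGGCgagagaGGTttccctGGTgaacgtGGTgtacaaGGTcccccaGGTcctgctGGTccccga
Col3a1: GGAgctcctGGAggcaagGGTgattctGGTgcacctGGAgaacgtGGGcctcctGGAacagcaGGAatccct
Col4a1: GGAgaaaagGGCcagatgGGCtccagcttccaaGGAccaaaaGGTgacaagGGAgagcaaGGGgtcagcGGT
Col8a2: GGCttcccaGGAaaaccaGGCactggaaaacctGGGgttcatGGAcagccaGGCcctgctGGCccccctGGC
Col25a1: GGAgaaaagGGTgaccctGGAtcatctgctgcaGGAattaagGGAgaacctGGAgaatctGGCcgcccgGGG
The Col1a1 stretch covers codons 663 to 686 and lies within chr11:94945404-94945562 on the plus strand, and that of Col3a1 covers codons 668 to 691 within chr1:45336687-45337294 on the plus strand. The Col4a1 stretch covers codons 215 to 238 within chr8:11241188-11242790 on the minus strand. Those of Col8a2 (codons 91 to 114, chr4:126310469-126310540) and Col25a1 (codons 300 to 323, chr3:130522469-130530126) are on the plus strand. All 5 are coding exon sequence, and all but that of Col8a2 are joined across introns.

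Of the 11 fibrillar chains, 9 held a longest run of over 300 triplets, the longest of 344 in Col3a1, and Col24a1 and Col27a1 held 216 and 217. The 6 collagen IV chains each had 22 to 27 shorter runs, of which the longest reached 39 to 66 triplets. Among the 26 other chains the longest run reached 23 triplets in Col26a1 and up to 113 in the collagen IX chains and Col22a1. The 11 laminins had no run of this kind.

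**Figure D1:**
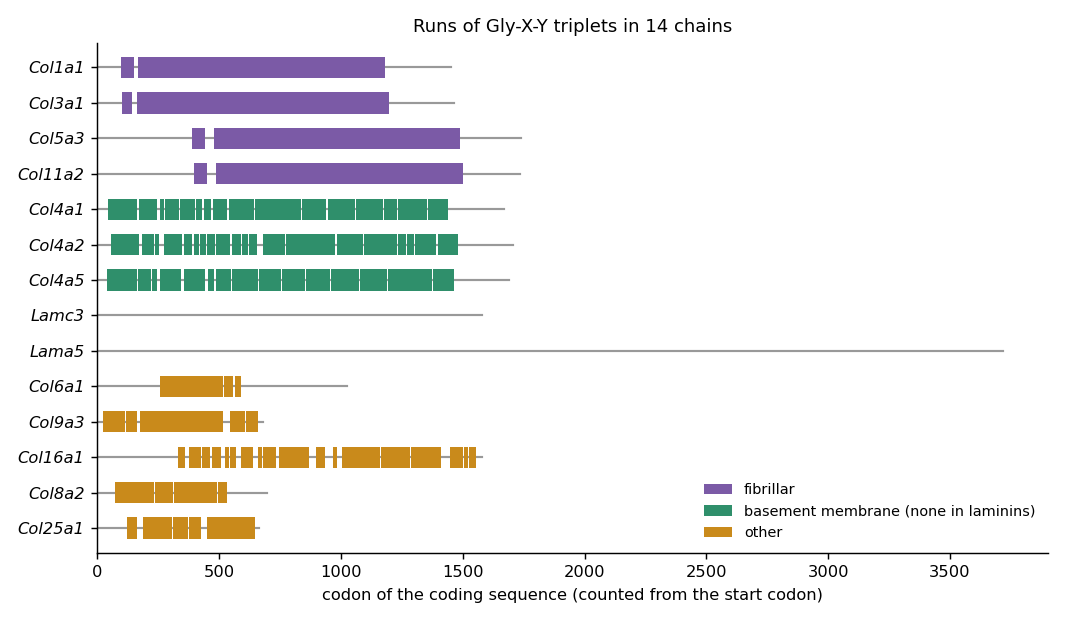
Runs of at least 5 Gly-X-Y triplets (coloured bars) along the coding sequence (grey line, in codons from the start codon) of 14 chains, coloured by class. Fibrillar chains hold 1 long unbroken run, collagen IV chains many short ones, and the laminins Lamc3 and Lama5 none.

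Levels were compared between chains as CPM per kilobase of merged exon. Col25a1, a membrane-spanning collagen of neurons, was the most abundant chain, with a mean of 17.2 CPM per kb over the 4 libraries. Col16a1, a fibril-associated collagen, followed at a mean of 15.7 CPM per kb, and its range over libraries (13.2 to 18.4) enclosed that of Col25a1 (16.0 to 17.7). Next came Col4a2 at 9.73, Col9a3 at 8.58, Col11a2 at 7.94, Lamb2 at 7.59 and Col4a1 at 6.75 CPM per kb. The least abundant was Col6a5 at 0.0453 CPM per kb. Of the summed level of all chains, the other collagens made up 50.5 and 49.5% in isolated and 50.4 and 51.7% in group-housed libraries. Basement membrane chains made up 32.1 and 31.8% in isolated and 32.2 and 29.6% in group-housed libraries, and fibrillar chains 17.4 and 18.7% in isolated and 17.4 and 18.7% in group-housed libraries. The ranges of the groups overlapped for all 3 shares.

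No chain passed an adjusted p of 0.05 between isolated and group-housed libraries (edgeR's quasi-likelihood test, Benjamini-Hochberg over the 17528 genes tested, of which 0.0114% passed as higher and 0% as lower). At an unadjusted p below 0.05 there were 4 chains, all higher in the isolated libraries (Lamc3, Col8a2, Lama1 and Col4a1), which is 7.41% of the 54 chains beside 5.09% of all tested genes. DESeq2 called 1 chain, Lamc3, as higher (in that test 0.24% of all genes passed as higher and 0.0571% as lower), and limma-voom called none. For 12 chains the 2 isolated values exceeded the 2 group-housed values (22.2%, beside 17.4% of all tested genes) and for 4 chains they were the lower ones, Lama2, Col6a5, Col9a2 and Col26a1 (7.41%, beside 16.3%). Log2 fold changes of the 54 chains ran from -0.69 to 0.77, with 25 positive and 29 negative, and 51.2% of all tested genes were positive. Their median was -0.03, and that of all tested genes 0.0033. The 95% interval of the fold change included 0 on the log2 scale for 50 chains and lay within 2-fold either way for 45.

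**Figure D2:**
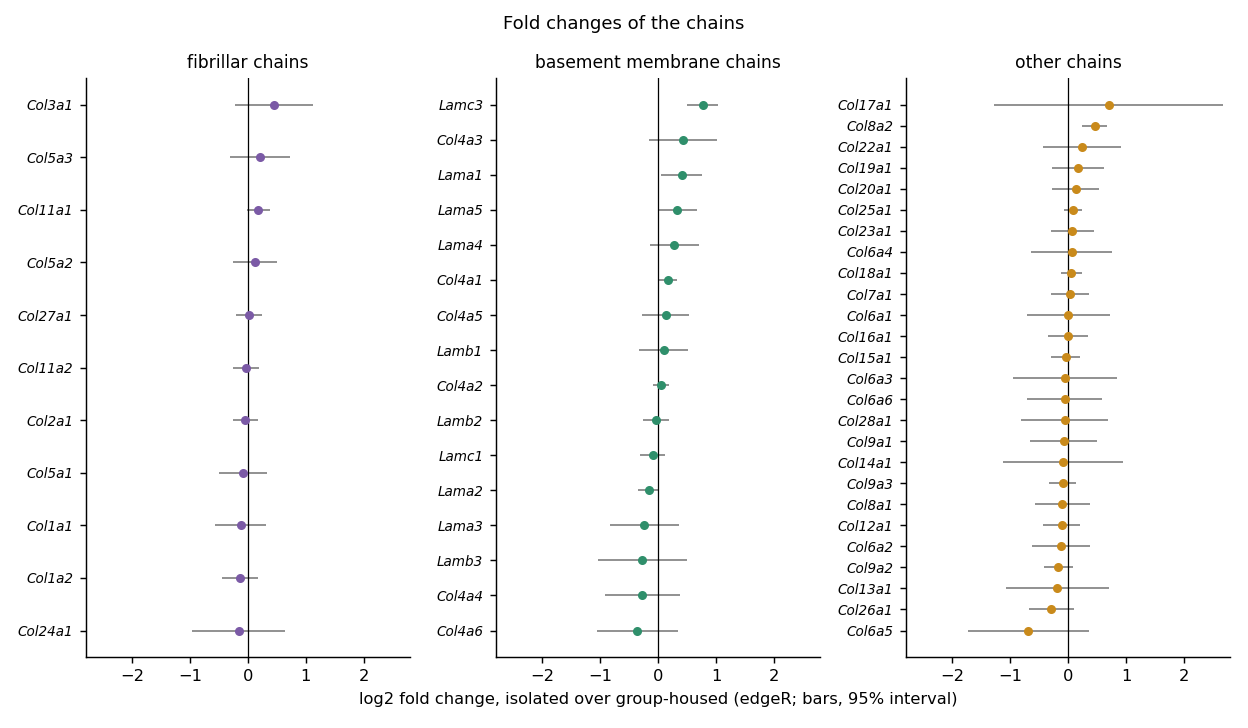
Log2 fold change of each chain but 1 that is not reported here, isolated over group-housed libraries (points, edgeR; bars, 95% interval), by class. Lamc3 at 0.77 and Col8a2 at 0.45 stand furthest from 0 relative to their intervals, while fibrillar chains scatter round 0.

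Lamc3, which encodes the γ3 chain of laminin and is known for roles in the cortex and retina of mice, showed the clearest difference. It measured 26.1 and 32.9 CPM in isolated replicates 1 and 2, against 17.6 and 17.0 CPM in group-housed replicates 1 and 2. Both isolated libraries thus lay well above both group-housed ones, and the isolated libraries also differed more between themselves. The means were 29.5 ± 4.81 CPM in isolated and 17.3 ± 0.393 CPM in group-housed libraries (SD, n = 2 each), a fold of 1.70 and a log2 fold change of 0.77 (SE 0.12, 95% interval 0.50 to 1.04, edgeR unadjusted p = 0.000142, adjusted p = 0.167). The gene (ENSMUSG00000026840) spans positions 31887291 to 31946539 on the plus strand of chromosome 2 (GRCm38). Its exons overlap those of an annotated antisense gene by 382 bases, and that gene had 0 counts in every library. With DESeq2 the adjusted p was 0.00159, with no filter on low counts edgeR gave an adjusted p = 0.0436, and without isolated replicate 1 it gave 0.00286, whereas leaving out any of the other 3 libraries in edgeR gave adjusted p-values from 0.138 to 0.676.

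Lamc1, the γ chain of most laminins, measured 48.6 and 52.9 CPM in isolated libraries, against 49.6 and 58.7 CPM in group-housed libraries (log2 fold change -0.10, SE 0.09). Those groups overlapped. Per kilobase, Lamc3 made up 42.2 and 45.8% of the summed level of Lamc1 and Lamc3 in isolated libraries, against 32.5 and 28.3% in group-housed libraries. The shares did not overlap between groups. An exact permutation test of 2 against 2 libraries cannot give a p below 0.333, so no such test could pass.

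Markers of neighbouring tissues were compared as well, and only some were higher along with Lamc3. Of 10 medial habenula markers 9 were higher in isolated libraries, their median log2 fold change was 0.42, and their levels summed to 2021 and 2031 CPM in isolated and to 1704 and 1615 CPM in group-housed libraries, with none at 0. They include Slc5a7 and Chrnb3, which were the 2 genes of all those tested that edgeR called (adjusted p = 0.0227 for each). All 10 ependymal markers were higher (median 0.82), with sums of 93.2 and 187 CPM in isolated and 87.7 and 84.4 CPM in group-housed libraries, so that only isolated replicate 2 stood far apart in the sum. Of 10 thalamus markers 9 were lower (median -0.44), with sums of 1196 and 1057 CPM in isolated and 1197 and 1263 CPM in group-housed libraries. Of 10 tested choroid plexus markers 4 were higher and 6 lower (median -0.27). The 12 listed summed to 79.7 and 93.5 CPM in isolated and 57.4 and 166 CPM in group-housed libraries, with overlap. Among them, Kcne2 was at 0 in a library. The part of these tissues in the Lamc3 difference was not tested.

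The α chains of laminin decide which receptors a laminin binds. Lama1, the α chain of embryonic and pial basement membranes, measured 8.07 and 9.89 CPM in isolated libraries, against 6.53 and 7.0 CPM in group-housed libraries. The groups did not overlap (log2 fold change 0.41, SE 0.16, 95% interval 0.05 to 0.76, edgeR unadjusted p = 0.0299, adjusted p = 0.890). Lama5, the α chain of endothelial and many other mature basement membranes, measured 21.1 and 29.5 CPM in isolated libraries, against 19.3 and 21.1 CPM in group-housed libraries. Isolated replicate 2 stood apart, and isolated replicate 1 exceeded group-housed replicate 2 by less than the rounding (log2 fold change 0.33, SE 0.15, edgeR adjusted p = 0.979). Without isolated replicate 1, edgeR called Lama5 higher (log2 fold change 0.55, adjusted p = 0.0299), and without isolated replicate 2 the log2 fold change was 0.07 (adjusted p = 0.978).

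Lama2, the α chain made around brain vessels and in muscle, went the other way, with 30.1 and 29.5 CPM in isolated libraries, against 34.4 and 32.4 CPM in group-housed libraries. Both isolated values lay below both group-housed ones, by a small margin (log2 fold change -0.16, SE 0.08, edgeR adjusted p = 0.979). Glial markers lay lower as well, with a median log2 fold change of -0.22 for oligodendrocytes (10 of 10 markers lower), -0.16 for their precursors (7 of 7), -0.15 for microglia (9 of 9) and -0.12 for astrocytes (7 of 8). None of these markers was at 0 or passed edgeR's adjusted threshold. The oligodendrocyte markers summed to 9980 and 11692 CPM in isolated and 13129 and 12153 CPM in group-housed libraries, the precursor markers to 637 and 635 CPM in isolated and 734 and 692 CPM in group-housed libraries. The microglia markers summed to 365 and 360 CPM in isolated and 419 and 380 CPM in group-housed libraries, and the astrocyte markers to 3749 and 3728 CPM in isolated and 4098 and 3903 CPM in group-housed libraries. All 4 sums were lower in both isolated libraries, and the part of glia in the Lama2 values was not tested. Lama4, the other endothelial α chain, measured 4.88 and 6.27 CPM in isolated and 4.68 and 4.51 CPM in group-housed libraries. Per kilobase, Lama2 made up 35.3 and 28.9% of the summed α chain level in isolated libraries, against 41.1 and 37.0% in group-housed libraries. Lama1 made up 16.0 and 16.4% in isolated against 13.2 and 13.5% in group-housed libraries, and Lama5 made up 35.6 and 41.5% in isolated against 33.1 and 34.5% in group-housed libraries. Lama4 made up 7.74 and 8.32% in isolated against 7.58 and 6.96% in group-housed libraries. The shares of Lama1, Lama2, Lama4 and Lama5 were separated between groups, downward for Lama2 and upward for the others. That of Lama3 overlapped. For Lama4 the gap lay only between 7.74% in isolated and 7.58% in group-housed replicate 1. For Lama5 it lay between 35.6% in isolated replicate 1 and 34.5% in group-housed replicate 2. By level, 17.4% of all tested genes were separated upward and 16.3% downward. The shares of a library have a fixed total, so they do not move independently. Of 14 endothelial markers 8 were higher and 6 lower, and their levels summed to 218 and 258 CPM in isolated and 228 and 234 CPM in group-housed libraries, with none at 0. Of 12 pericyte and smooth muscle markers 6 were higher and 6 lower, with sums of 169 and 192 CPM in isolated and 176 and 187 CPM in group-housed libraries. Both sums overlapped between groups and were highest in isolated replicate 2, as was Lama5, and their part was not tested.

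The β chains were near even between groups. Lamb2, the β chain of vascular and synaptic laminins, measured 40.8 and 50.5 CPM in isolated libraries, against 46.6 and 46.8 CPM in group-housed libraries. Lamb1, the β chain of the first embryonic laminins, measured 7.12 and 8.35 CPM in isolated and 6.04 and 8.33 CPM in group-housed libraries. Lamb2 made up 87.2 to 89.3% of the β chain level per kilobase in every library. The epithelial laminin chains Lama3, between 2.78 and 4.67 CPM, and Lamb3, between 1.10 and 2.19 CPM, were low in all libraries, and neither separated the groups.

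**Figure D3:**
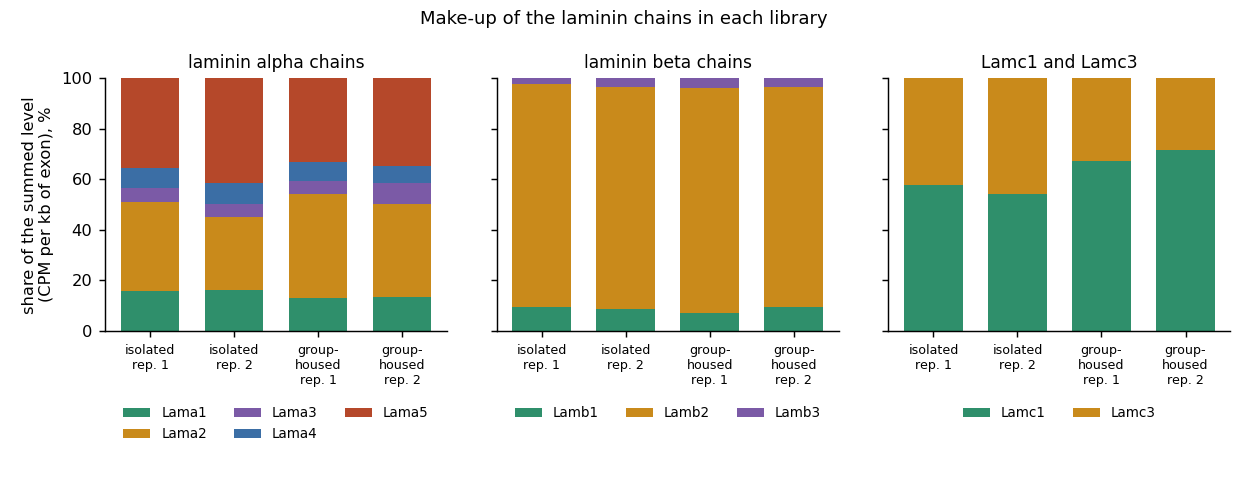
Share of each chain in the summed level (CPM per kb of exon, in percent) of the α laminin chains, the β laminin chains, and Lamc1 with Lamc3, per library. Lamc3 holds 42.2 and 45.8% of the last pair in isolated libraries and 32.5 and 28.3% in group-housed libraries, while Lamb2 holds over 87% of the β chains throughout.

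Collagen IV is the sheet-forming collagen of basement membranes, and its main trimer joins products of Col4a1 and Col4a2. Col4a1 measured 55.3 and 51.1 CPM in isolated libraries, against 47.3 and 47.7 CPM in group-housed libraries. The groups did not overlap, and the log2 fold change was 0.17 (SE 0.07, 95% interval 0.0032 to 0.33, edgeR unadjusted p = 0.0465, adjusted p = 0.970). Its partner Col4a2 measured 66.2 and 64.8 CPM in isolated libraries, against 62.2 and 64.5 CPM in group-housed libraries. These lay within a few percent of each other (log2 fold change 0.05, SE 0.06, 95% interval -0.10 to 0.19). Per kilobase, the ratio of Col4a2 to Col4a1 was 1.35 and 1.43 in isolated and 1.48 and 1.53 in group-housed libraries. The pair stands head to head on chromosome 8, with annotated starts 21 bases apart and first exons that overlap by 22 bases.

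The other collagen IV genes form pairs of the same kind. Col4a3 and Col4a4, known from the kidney filter, start 72 bases apart on chromosome 1. Col4a3 measured 1.94 and 1.89 CPM in isolated and 1.32 and 1.52 CPM in group-housed libraries, and Col4a4 measured 1.71 and 2.61 CPM in isolated and 2.19 and 3.0 CPM in group-housed libraries. The log2 fold changes were 0.43 (SE 0.26) for Col4a3 and -0.27 (SE 0.28) for Col4a4, at only 27 to 77 counts per library, and leaving out 1 library moved Col4a4 between -0.61 and -0.0088. Col4a5 measured 5.37 and 6.91 CPM in isolated and 5.56 and 5.64 CPM in group-housed libraries. Its neighbour on the X chromosome, Col4a6, whose start lies 1309 bases away, measured 1.07 and 1.44 CPM in isolated and 1.32 and 1.87 CPM in group-housed libraries. Col4a2 made up 53.5% of collagen IV per kilobase in both isolated libraries and 55.1 and 55.2% in group-housed libraries, and Col4a1 made up 39.7 and 37.5% in isolated and 37.1 and 36.2% in group-housed libraries.

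Summed over the 17 basement membrane chains, the level was 41.9 and 46.0 CPM per kb in isolated and 39.9 and 42.0 CPM per kb in group-housed libraries, which overlapped. Log2 fold changes were positive for 9 and negative for 8 of these chains, from -0.36 to 0.77 around a median of 0.05. The 2 isolated values were the higher ones for 7 of the 17 (41.2%, beside 17.4% of all tested genes). They were the lower ones for 1, Lama2 (5.88%, beside 16.3%). The 7 are Lamc3, Lama1, Lama4, Lama5, Col4a1, Col4a2 and Col4a3. For Lama5 the gap lay only between 21.14 CPM in isolated replicate 1 and 21.09 CPM in group-housed replicate 2. For Col4a2 it lay between 64.8 CPM in isolated replicate 2 and 64.5 CPM in group-housed replicate 2.

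**Figure D4:**
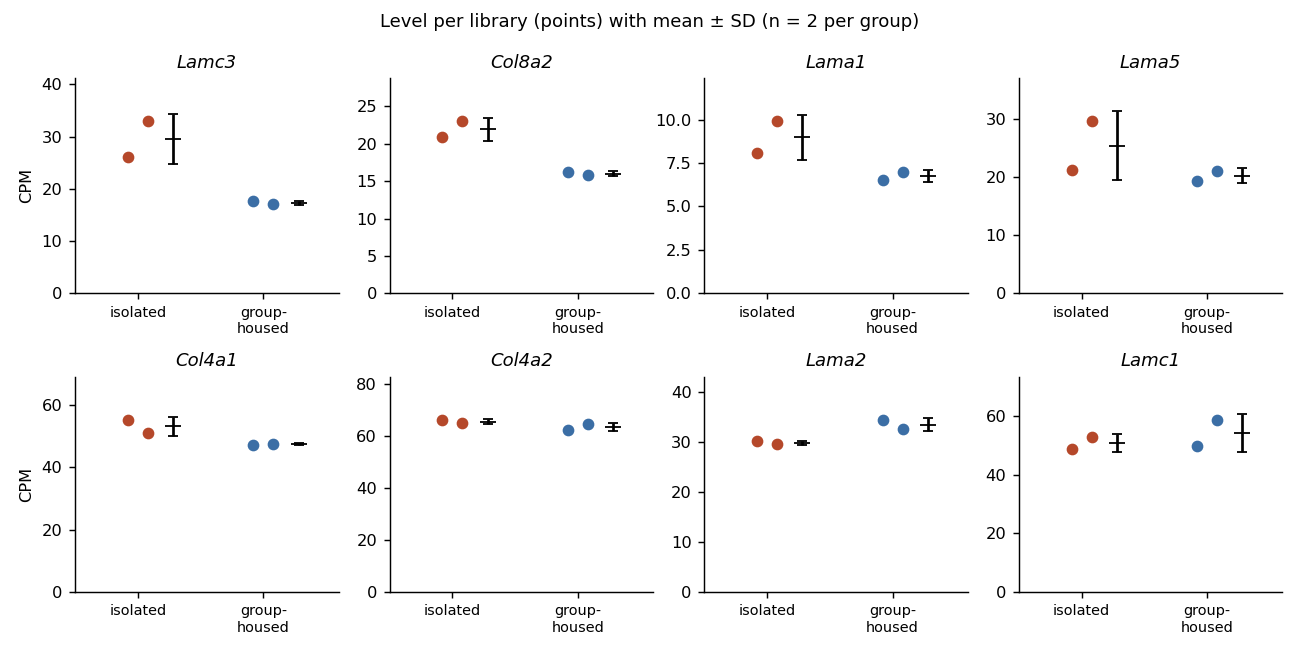
CPM in each library (points) with mean ± SD (n = 2 per group) of 8 chains, isolated left and group-housed right. Of these chains Lamc3 and Col8a2 show the widest gaps relative to their levels, Lama2 lies lower in isolated libraries, and the groups overlap for Lamc1.

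Col8a2 encodes a chain of the short network collagen VIII, known from the basement membrane of the corneal endothelium and from vessels. It measured 20.9 and 23.0 CPM in isolated libraries, against 16.2 and 15.8 CPM in group-housed libraries. All isolated values lay above the group-housed ones (21.9 ± 1.5 CPM in isolated and 16.0 ± 0.308 CPM in group-housed libraries, SD, n = 2 each), with a fold of 1.37 and a log2 fold change of 0.45 (SE 0.10, 95% interval 0.23 to 0.68, edgeR unadjusted p = 0.00129, adjusted p = 0.369). No annotated exon of another gene overlaps it (ENSMUSG00000056174, plus strand of chromosome 4 from 126286793 to 126314330). The chain that can join it, Col8a1, measured 4.46 and 3.29 CPM in isolated and 4.24 and 4.08 CPM in group-housed libraries, with overlap between groups. The ratio of Col8a2 to Col8a1 per kilobase was 8.17 and 12.2 in isolated and 6.68 and 6.75 in group-housed libraries. As for Lamc3, the medial habenula and ependymal markers given above moved with this gene, and their part was not tested.

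Among the fibrillar chains the smallest unadjusted edgeR p was 0.0696, for Col11a1, and log2 fold changes were positive for 5 and negative for 6, from -0.16 to 0.45 around a median of -0.03. Col11a2, Col5a3, Col2a1 and Col11a1, minor or cartilage fibril chains, were the most abundant per kilobase. Col11a2 measured 49.2 and 58.8 CPM in isolated and 51.6 and 58.7 CPM in group-housed libraries. Col5a3, a type V chain that controls fibril width, measured 40.1 and 48.6 CPM in isolated and 26.9 and 49.5 CPM in group-housed libraries. Group-housed replicate 1 stood apart here, and without it the log2 fold change was -0.16, against 0.21 with all 4 libraries and 0.71 without group-housed replicate 2.

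Col2a1 measured 18.5 and 20.0 CPM in isolated and 19.1 and 20.6 CPM in group-housed libraries. Col11a1 measured 25.4 and 23.4 CPM in isolated and 21.7 and 21.4 CPM in group-housed libraries, and was the 1 fibrillar chain whose groups did not overlap (log2 fold change 0.18, SE 0.09, edgeR adjusted p = 0.979). Of the type I collagen chains, Col1a1 measured 7.08 and 10.8 CPM in isolated and 9.46 and 9.96 CPM in group-housed libraries. Col1a2 measured 16.0 and 20.6 CPM in isolated and 18.4 and 21.7 CPM in group-housed libraries, and both chains were lowest in isolated replicate 1. Col3a1, the type III chain of vessel walls and meninges, measured 3.35 and 6.38 CPM in isolated and 3.27 and 3.85 CPM in group-housed libraries. It stood high in isolated replicate 2 only, with a log2 fold change of 0.45 (SE 0.29) whose 95% interval ran from -0.23 to 1.12. Of the rest, Col27a1, Col5a1, Col5a2 and Col24a1 lay between 1.26 CPM (Col24a1) and 18.8 CPM (Col27a1) in any library, and their groups overlapped.

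The groups overlapped in the median level of every class. Relative to each chain's mean over libraries, the fibrillar chains had a median log2 level of -0.12 and 0.11 in isolated replicates 1 and 2 and of -0.06 and 0.08 in group-housed replicates 1 and 2. The other collagens gave -0.07 and 0.06 in isolated and -0.09 and 0.07 in group-housed libraries. The basement membrane chains gave -0.07 and 0.16 in isolated and -0.08 and 0.0018 in group-housed libraries. Isolated replicate 2 was the highest for fibrillar and basement membrane chains, and group-housed replicate 2 for the others. Markers of meningeal and perivascular fibroblasts, 15 genes of which 14 were tested and none is a collagen, had medians of -0.19 and 0.20 in isolated and -0.11 and 0.12 in group-housed libraries and summed to 65.4 and 83.8 CPM in isolated and 75.2 and 87.7 CPM in group-housed libraries, with none at 0. The 4 libraries stood in the same order by this marker median as by that of the fibrillar chains, but not by the marker sum. That order was not particular to fibroblast markers. Endothelial markers, with medians of -0.07 and 0.17 in isolated and -0.05 and 0.05 in group-housed libraries, gave it as well. So did pericyte and smooth muscle markers, with -0.07 and 0.13 in isolated and -0.05 and -0.04 in group-housed libraries. The part of fibroblasts or vessel cells was not tested.

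**Figure D5:**
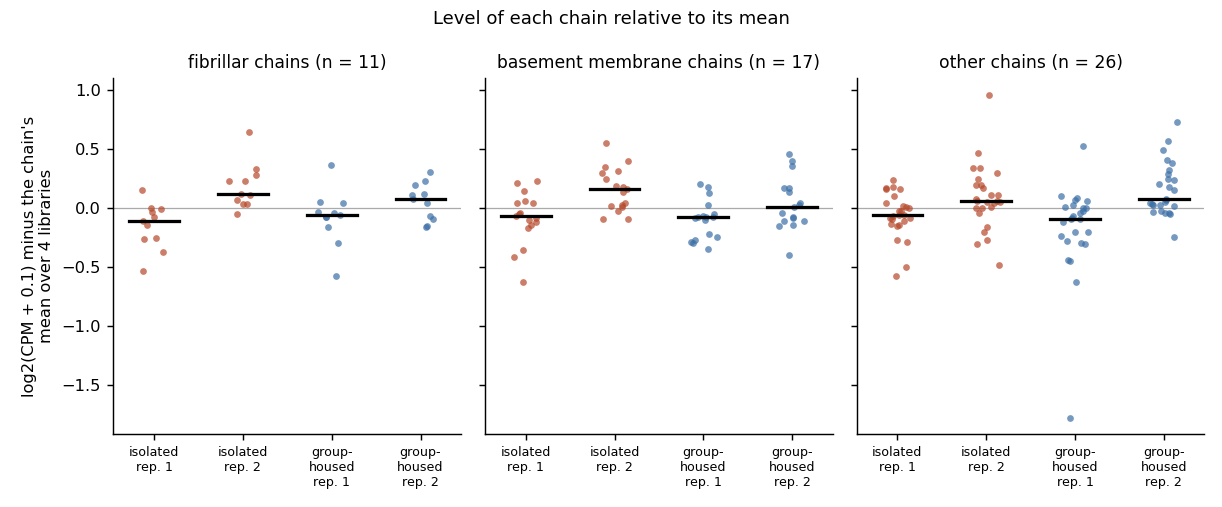
Log2(CPM + 0.1) of each chain minus its mean over the 4 libraries (points), with the class median (black line), for fibrillar, basement membrane and other chains in isolated and group-housed libraries. Replicate 2 of each housing lies above replicate 1 in all 3 classes; the lowest point, in group-housed replicate 1, is Col17a1 with 0 counts there.

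Collagen VI forms beaded filaments near basement membranes, and its summed level differed more within each group than between them, with 1.86 and 2.48 CPM per kb in isolated and 1.73 and 2.76 CPM per kb in group-housed libraries. Col6a1 measured 3.16 and 4.95 CPM in isolated and 2.83 and 5.17 CPM in group-housed libraries. Col6a3, the large chain of that trimer, measured 1.6 and 3.21 CPM in isolated and 1.66 and 3.27 CPM in group-housed libraries. Both chains were higher in replicate 2 than in replicate 1 of either housing, and the log2 fold changes between housings were 0.0024 (SE 0.31, with a sign that changed with the scaling) for Col6a1 and -0.06 (SE 0.39) for Col6a3. Col6a2 measured 5.94 and 6.19 CPM in isolated and 5.02 and 8.09 CPM in group-housed libraries. The alternative chains Col6a4, Col6a5 and Col6a6 reached at most 1.78 CPM in any library. Col6a5, with 7 to 13 counts per library, lay lower in both isolated libraries (log2 fold change -0.69, SE 0.46).

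Of the fibril-associated collagens, Col16a1 measured 94.3 and 118 CPM in isolated and 88.9 and 124 CPM in group-housed libraries, again with replicate 2 the higher of each pair and a log2 fold change of -0.01 (SE 0.15) whose sign changed with the scaling. The collagen IX chains Col9a3 and Col9a2, which in cartilage coat type II fibrils, were the next in level. Col9a3 measured 30.9 and 33.0 CPM in isolated and 31.0 and 37.3 CPM in group-housed libraries, and Col9a2 measured 18.1 and 19.0 CPM in isolated and 19.0 and 22.6 CPM in group-housed libraries. Col9a2 lay lower in both isolated libraries by a narrow margin (log2 fold change -0.17, SE 0.11, edgeR adjusted p = 0.988). Col12a1 measured 27.8 and 19.9 CPM in isolated and 25.7 and 25.9 CPM in group-housed libraries. Col9a1, Col14a1, Col19a1, Col20a1 and Col22a1 lay between 0.439 and 5.51 CPM, and of these only Col19a1 had both isolated values above both group-housed ones. Col20a1 overlaps a gene annotated on the same strand that had 149 to 228 counts per library, so its counts are uncertain.

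Col25a1, which in mice is needed for motor axons to reach muscle and whose shed ectodomain binds amyloid, measured 229 and 228 CPM in isolated libraries, against 207 and 226 CPM in group-housed libraries. The isolated values lay just above, with a log2 fold change of 0.08 (SE 0.07, 95% interval -0.08 to 0.23). As a fold, the interval ran from 0.947 to 1.17. The other membrane-spanning chains were lower. Col23a1 measured 5.22 and 5.36 CPM in isolated and 5.07 and 5.02 CPM in group-housed libraries, a narrow gap with no overlap (log2 fold change 0.07, SE 0.16). Col13a1 stayed between 0.571 and 1.17 CPM. Col17a1, of hemidesmosomes, had 7 and 15 counts in isolated and 0 and 12 counts in group-housed libraries, so no fold is given.

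The multiplexins Col18a1, whose tail is the source of endostatin, and Col15a1 lie in basement membrane zones. Col18a1 measured 31.7 and 34.0 CPM in isolated and 32.2 and 31.1 CPM in group-housed libraries, and Col15a1 measured 13.2 and 14.6 CPM in isolated and 14.3 and 14.3 CPM in group-housed libraries. Neither separated the groups (log2 fold change 0.05 for Col18a1 and -0.05 for Col15a1). Col26a1 measured 5.71 and 5.17 CPM in isolated and 6.00 and 7.31 CPM in group-housed libraries, and both isolated values were below (log2 fold change -0.29, SE 0.17, edgeR adjusted p = 0.979). Col7a1, of anchoring fibrils, stayed between 6.85 and 7.29 CPM and Col28a1 between 0.829 and 1.17 CPM. Over all 26 other collagens log2 fold changes were positive for 11 and negative for 15, around a median of -0.05.

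No tested gene from a list of those that make, bind or degrade these chains passed either. Of 76 listed genes 68 were tested, 31 with a positive and 37 with a negative log2 fold change around a median of -0.01, and 0 passed in edgeR, DESeq2 or limma-voom. At an unadjusted p below 0.05 in edgeR, 2 were higher (beside 2.83% of all genes) and 1 lower (beside 2.26%). Among the biosynthesis enzymes, P4hb, the β subunit of prolyl hydroxylase, measured 164 and 159 CPM in isolated and 173 and 159 CPM in group-housed libraries. Ppib, a prolyl isomerase of the collagen-folding complex, measured 113 and 121 CPM in isolated and 119 and 119 CPM in group-housed libraries. Colgalt2, a collagen galactosyltransferase, measured 27.4 and 30.5 CPM in isolated and 24.8 and 24.5 CPM in group-housed libraries (log2 fold change 0.23, SE 0.09, edgeR adjusted p = 0.876), and Loxl3, a cross-linking oxidase, 5.18 and 5.51 CPM in isolated and 5.90 and 6.73 CPM in group-housed libraries (-0.24, SE 0.16).

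Of the matrix partners, Sparc, a collagen-binding glycoprotein, was the most abundant, with 893 and 860 CPM in isolated and 987 and 914 CPM in group-housed libraries. Agrn, a heparan sulfate proteoglycan of basement membranes, measured 306 and 304 CPM in isolated and 261 and 307 CPM in group-housed libraries. Bgn, a small proteoglycan, measured 7.73 and 9.03 CPM in isolated and 7.60 and 6.61 CPM in group-housed libraries, and Fmod, another that binds fibrils, 1.90 and 4.08 CPM in isolated and 3.8 and 6.07 CPM in group-housed libraries. Both isolated values were below the group-housed ones for Sparc (log2 fold change -0.12) and above them for Bgn (0.24), while those of Fmod overlapped (-0.73, SE 0.35). The glial markers given beside Lama2 were lower along with Sparc, and their part was not tested.

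Among the receptors, Adgrg1, which binds type III collagen in mouse cortex, measured 227 and 226 CPM in isolated and 243 and 229 CPM in group-housed libraries. Ddr1, a collagen-activated tyrosine kinase, measured 158 and 204 CPM in isolated and 191 and 190 CPM in group-housed libraries. Itga11, the α subunit of a fibrillar collagen integrin, lay higher in both isolated libraries at 1.45 and 2.23 CPM, against 0.975 and 1.13 CPM in group-housed libraries (log2 fold change 0.80, SE 0.32, edgeR adjusted p = 0.913). Itgb4, a subunit of a laminin integrin, lay lower at 41.1 and 48.5 CPM in isolated, against 54.3 and 49.6 CPM in group-housed libraries (-0.21, SE 0.09). Of 9 tested turnover genes 2 were higher and 7 lower. Timp2, a metalloproteinase inhibitor, measured 429 and 357 CPM in isolated and 410 and 410 CPM in group-housed libraries. Timp3, the inhibitor that is held in the matrix, measured 219 and 211 CPM in isolated and 232 and 253 CPM in group-housed libraries (-0.17, SE 0.07, edgeR adjusted p = 0.928), and lies within another gene, Syn3. Mmp16, a membrane-bound metalloproteinase, measured 21.2 and 21.3 CPM in isolated and 19.7 and 22.2 CPM in group-housed libraries, with overlap.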

How the data were processed

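Poly(A) RNA libraries were made with a stranded kit from Trizol-extracted total RNA, per the labels' protocols. The authors deposited raw counts per gene for 4 libraries. CASAVA, TopHat2 2.1.1, HTSeq, edgeR and GRCm38 are named in the submitters' processing notes. The strand setting and annotation release used for counting were not given in the sources used here. Per-library normalized files, each a constant multiple of the counts, were not used, and 0 value columns were left unmapped.

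Counts were tested with edgeR 4.0.16 in R 4.3.3 (TMM normalization, filterByExpr, quasi-likelihood test, 17528 genes, Benjamini-Hochberg adjustment, threshold 0.05), on isolated over group-housed libraries without a replicate block. The common biological coefficient of variation was 7.20%, with 2 residual degrees of freedom. Tests and intervals also used prior degrees of freedom drawn from the spread of all genes (median 6.55). Standard errors are the log2 fold change over the square root of F. Levels are CPM of the effective library size, and per kilobase of merged GENCODE M21 exons. Intervals are 95%. The 3-count limits cover counting error only. The test was also run on counts simulated with the same dispersion for every gene. That setting lacks the gene-wise spread of the real data, so it does not vouch for the p-values given here. Alternatives were DESeq2 1.42.0, limma 3.58.1 (voom), other scalings and filters, a replicate block and leaving out each library.

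Values per library were to be given for the 4 most abundant chains of each family, the 4 with the smallest p per direction, and chains of 1 trimer; those given for other chains were added with their values known. The chains, gene lists and marker lists were chosen with earlier results of these data known. The values of 1 chain are not reported here; it is included in the counts, medians and sums.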

Additional observations from a re-analysis of the deposited data

How the results depend on the processing

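With 2 libraries a group, the 95% interval reached a median of 0.41 to either side of a chain's log2 fold change, which limits what could be detected for the chains with few counts. Among all tested genes, edgeR called 2, against 15 with no filter on low counts, 52 with DESeq2 and 1 to 221 when 1 library was left out. Of the chains it called 0, against 1 (Lamc3) with no filter, 1 (Lamc3) with DESeq2 and 0 to 2 with a library left out; the 2, Lamc3 and Lama5, were called without isolated replicate 1. The cause was not tested. No partner gene was called under any alternative run.

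The replicate numbers correlated weakly between groups (r = 0.141 between the deviations of libraries with the same number). No label says that the numbers pair the samples or mark a shared batch, and whether they do was not tested. With a replicate block edgeR called 64 genes and 1 chain, Lamc3 (adjusted p = 0.0102).

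Leaving out 1 library moved the median log2 fold change of fibrillar chains (main value -0.03) between -0.10 and 0.12, that of the other collagens (-0.05) between -0.14 and 0.13, and that of basement membrane chains (0.05) between -0.02 and 0.14. Log2 fold changes near 0 changed sign: Col16a1 was at 0.013 with library totals, 0.0054 with limma-voom and 0.0053 with the replicate block, and Col6a1 at -0.00043 with RLE size factors and -0.00060 with no filter. With a library left out, sign changes gave ranges of -0.17 to 0.089 for Col11a2, -0.22 to 0.25 for Col16a1, -0.46 to 0.15 for Col1a1, -0.34 to 0.030 for Col1a2, -0.10 to 0.0086 for Col2a1, -0.060 to 0.30 for Col4a5, -0.16 to 0.71 for Col5a3, -0.36 to 0.51 for Col6a1, -0.41 to 0.26 for Col6a2, -0.65 to 0.53 for Col6a3, -0.33 to 0.17 for Col6a6, -0.22 to 0.034 for Col9a3, -0.11 to 0.35 for Lamb1, -0.20 to 0.11 for Lamb2 and -0.21 to 0.023 for Lamc1. Lamc3 (0.59 to 0.93), Col8a2 (0.38 to 0.52), Lama1 (0.25 to 0.54), Col4a1 (0.11 to 0.22) and Lama2 (-0.22 to -0.12) kept their direction.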
